A study of Rattus norvegicus with 43 samples.

Results

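Solute carriers are membrane proteins that move ions, sugars, amino acids, metals, vitamins and organic acids across the cell surface and the membranes of organelles. In the colon, carriers on the luminal side of the surface epithelium take up sodium, chloride and short-chain fatty acids, while carriers on the basolateral side feed chloride secretion and hand absorbed solutes on to the blood. Carriers of the endoplasmic reticulum and Golgi supply nucleotide sugars for glycoproteins, which include the mucins, and the Slc25 carriers exchange metabolites across the inner mitochondrial membrane.

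The members were all probes of the array whose 1 platform symbol follows the Slc pattern of a family number, a letter and a member number, apart from Slc10a1 and Slc25a20. There were 162 such probes for 142 genes, among 8452 probes and 5628 named genes. The symbols Slc4a1ap and Slc7a6os follow the pattern but are named after a transporter, and they were kept as a class of their own. Of the 162 probes, 122 (107 genes) gave enough signal to be tested, 75.3% against 75.5% of all probes. Slc26a3, Slc26a6, Slc5a8, Slc6a14, Slc10a2, Slc30a1, Slc29a1 and Slc25a5 were not analysed here.

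RNA came from colonic mucosa, taken from 29 Sprague Dawley males, labelled as weanlings, whose diets held corn oil, fish oil or olive oil. Every rat had received azoxymethane, a colon carcinogen, at 15 mg/kg, and the series frames its 2 time points as stages of colon cancer initiation and progression. At 12 h after injection there were 5 rats on each oil, and at 10 wk by the sample labels there were 5 on corn oil, 4 on fish oil and 5 on olive oil. The treatment protocol gives the late rats a repeat injection and counts 9 wk from it, so age, number of injections and time on the diet differ together between the time points. There was no rat without carcinogen and no reference RNA. Each rat is a separate animal. Levels below are log2 of the normalized intensity, averaged over the arrays of a rat, with SD between rats. Differences are on the same log2 scale, with the standard error (SE) of 1 limma fit over the 6 groups. Adjusted p-values are over all 6381 tested probes, and a probe is called when its adjusted p is under 0.05. A level belongs to its own probe and is not compared between probes.

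The 43 arrays, of which 14 were repeats on 10 rats, fell into 4 classes by spot geometry and background in the files: large spots (7 arrays), a small background ring (13), a large background ring (17) and a high background (6). The small ring held 11 of the 15 rats at 12 h but 1 rat at 10 wk, while the large ring held 3 rats at 12 h and 11 at 10 wk. No source used here says what made these classes. The called time differences are therefore also given from a fit with the class as a block, called the blocked fit below. Differences within the small-ring arrays set 1 late rat, on corn oil, against 11 rats of all 3 oils at 12 h. The median signal above background was 163 to 685 per array, and 84.8% to 99.8% of spots lay above the noise. The epithelial markers Vil1 (13.39 ± 0.20 at 12 h, SD, n = 15), Cdhr5 (13.69 ± 0.22) and Tff3 (14.49 ± 0.26) were well above the floor of 6.46 at these levels.

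Between 12 h and 10 wk, averaged over the oils, 39 of the 122 tested Slc probes were called, 16 higher and 23 lower at 10 wk. That is 32%, against 36.9% of all tested probes (19.2% higher, 17.7% lower), so the share was near the background and is no result about the Slc genes as a set. With the authors' deposited normalized values in place of this scaling the split was 12 higher and 1 lower, among 90 probes. The median difference of all probes tested on those values was 0.08. The share of them called higher or lower is not given here, so this split is no result about the Slc genes. In those values the array of rat 131 (corn oil, 10 wk) had a median of 2.02, where all other array medians lay at 1.04 to 1.06. Its part in that split was not tested. With the scaling used here the median Slc difference was -0.05, against 0.00 over all tested probes. Called differences ran from -0.60 to 0.61, and 3 of them exceeded 0.5 in size. No tested Slc probe had ranges of rats at the time points that failed to overlap, where 0.486% of all tested probes did. An unadjusted p under 0.05 was reached by 49 of the 122 Slc probes and by 2943 of all 6381 tested probes.

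The largest rise was in Slc12a2, which encodes the basolateral sodium, potassium and chloride cotransporter that loads secretory cells with chloride. The smallest adjusted p belonged to Slc35c1, the Golgi carrier of GDP-fucose. Their promoters are shown because these genes lead the called probes by size and by adjusted p, a choice made after the values were seen. Each runs from 250 bases before to 50 bases after the annotated start, 5′ to 3′ on the strand of the gene, from RefSeq on build GRCr8. Capitals mark the GC box GGGCGG or its reverse complement CCGCCC.
Slc12a2, chr18:53546083-53546382, plus strand: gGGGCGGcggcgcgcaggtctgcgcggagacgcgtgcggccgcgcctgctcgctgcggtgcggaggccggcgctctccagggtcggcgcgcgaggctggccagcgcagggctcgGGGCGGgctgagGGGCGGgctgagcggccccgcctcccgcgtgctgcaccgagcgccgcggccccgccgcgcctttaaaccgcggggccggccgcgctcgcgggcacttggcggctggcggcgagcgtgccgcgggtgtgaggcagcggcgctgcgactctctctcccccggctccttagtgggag
Slc35c1, chr3:98883909-98884208, minus strand: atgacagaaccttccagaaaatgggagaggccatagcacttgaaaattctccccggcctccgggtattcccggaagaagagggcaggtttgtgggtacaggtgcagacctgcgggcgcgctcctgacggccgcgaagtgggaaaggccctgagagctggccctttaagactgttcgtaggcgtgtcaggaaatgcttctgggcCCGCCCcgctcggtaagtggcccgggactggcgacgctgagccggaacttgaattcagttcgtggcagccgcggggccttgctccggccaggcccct
The Slc12a2 window holds 3 GC boxes and the Slc35c1 window 1. A GC box stands in 33.1% of the 33469 promoter windows of the same length. Neither window holds TATAAA, found in 14.2% of all windows on either strand, or ACGTG, found in 19.3%. Of the 142 Slc genes, 118 had a promoter in the table.

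Among the carriers of sodium, potassium, calcium and protons, 9 of 14 probes were tested, and 2 rose and 3 fell. At 12 h, Slc12a2 stood at 11.48, 11.66, 11.95, 11.65 and 11.71 in the corn oil rats, and at 11.24, 11.67, 11.73, 11.64 and 12.04 in the fish oil rats. The olive oil rats at 12 h gave 12.04, 11.85, 11.44, 11.41 and 11.58. The 12 h groups overlapped almost entirely. At 10 wk the levels were 12.20, 12.40, 11.77, 11.91 and 12.61 on corn oil and 11.68, 11.90, 12.75 and 12.36 on fish oil. On olive oil at 10 wk they were 12.06, 12.25, 12.81, 12.80 and 12.53, all above every 12 h rat. All 14 late rats lay above the 12 h mean, but rats 134, 135, 232 and 233 lay within the 12 h range. The difference was 0.61 (SE 0.11, 1.53-fold, adjusted p = 0.000194). The blocked fit gave 0.67 (adjusted p = 0.00175), and within the large-spot, small-ring and large-ring arrays it was 0.35, 1.17 and 0.65.

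Slc12a7, a potassium and chloride cotransporter, rose by 0.22 (SE 0.08, adjusted p = 0.0381), in 12 of 14 late rats. That call was lost when any of 13 rats was left out and in the blocked fit (0.24, adjusted p = 0.127). Slc9a2, a sodium and proton exchanger of the luminal membrane, fell by 0.31 on its brighter probe (SE 0.10, adjusted p = 0.0143), from 12.18 ± 0.27 (SD, n = 15) to 11.88 ± 0.23 (SD, n = 14). The blocked fit gave -0.35 (adjusted p = 0.0416). A further Slc9a2 probe gave -0.21 (SE 0.11, adjusted p = 0.129). Its relative Slc9a3, the exchanger that carries much of colonic sodium uptake, was not called, at 13.37 and 13.43 and a difference of 0.08 (SE 0.11, adjusted p = 0.614). Slc12a3, known as the thiazide-sensitive cotransporter of the kidney, fell by 0.30 (SE 0.10, adjusted p = 0.0185). The tested probe of Slc24a1, known as the sodium, calcium and potassium exchanger of rod cells, fell by 0.32 (SE 0.10, adjusted p = 0.0138). Both lost the call in the blocked fit (-0.11 each, adjusted p = 0.384 and 0.425).

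**Figure D1:**
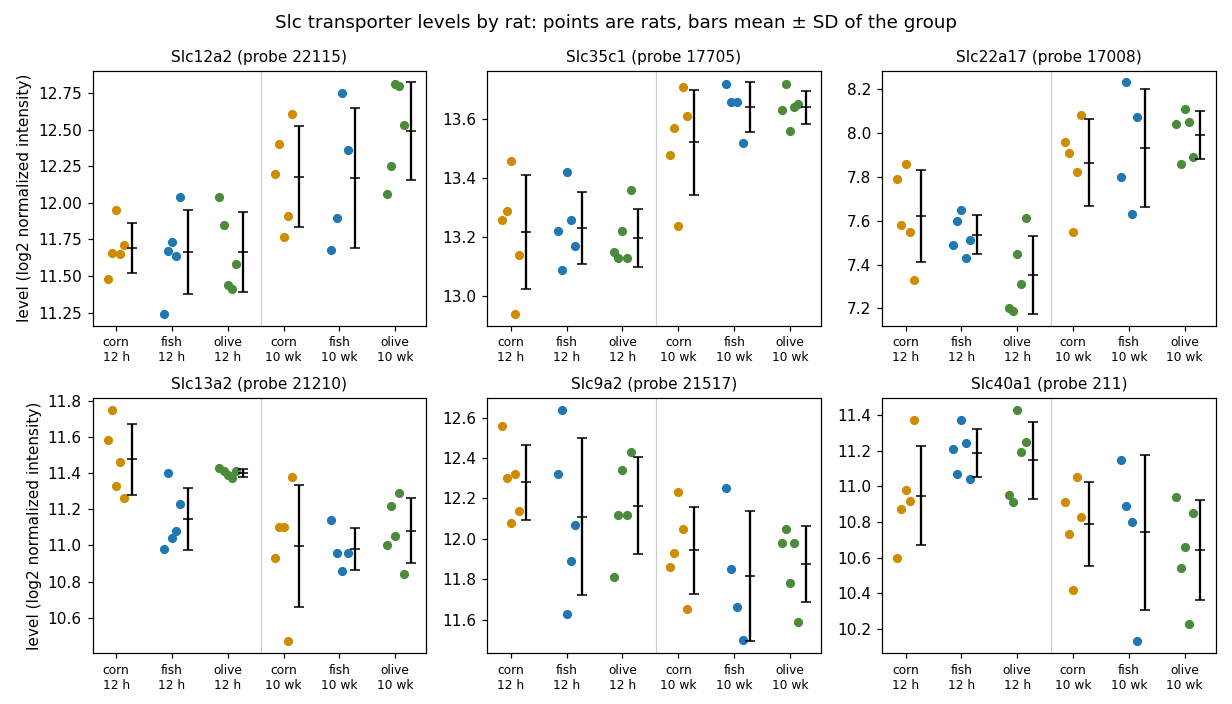
Level of 6 Slc probes (log2 normalized intensity, y axis) in each rat (points) by oil and time (x axis), with bars for the group mean ± SD; the axes do not start at 0 and differ between panels. Slc12a2, Slc35c1 and Slc22a17 are higher at 10 wk and Slc13a2, Slc9a2 and Slc40a1 lower, with ranges that overlap between the time points in every panel.

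All 10 probes for carriers of nucleotide sugars and related substrates were tested, and 3 rose and 2 fell. At 12 h, Slc35c1 read 13.26, 13.29, 13.46, 12.94 and 13.14 on corn oil, and 13.22, 13.09, 13.42, 13.26 and 13.17 on fish oil. On olive oil at 12 h it read 13.15, 13.13, 13.22, 13.13 and 13.36. The late rats read 13.48, 13.57, 13.24, 13.71 and 13.61 on corn oil. Late fish oil rats gave 13.72, 13.66, 13.66 and 13.52, and late olive oil rats 13.63, 13.72, 13.56, 13.64 and 13.65. Rat 134 at 13.24 was the 1 late rat below the highest 12 h rat. The difference was 0.38 (SE 0.05, 1.30-fold, adjusted p = 8.23e-06), and 0.28 in the blocked fit (adjusted p = 0.00354). Slc35d1, a carrier of UDP-glucuronic acid and UDP-N-acetylgalactosamine into the endoplasmic reticulum, rose by 0.55 (SE 0.15, 1.46-fold, adjusted p = 0.00528), and by 0.60 in the blocked fit (adjusted p = 0.0139). Its 12 h rats lay at 9.61 to 12.00 (median 11.64) and its late rats at 11.73 to 12.44 (median 12.05). The lowest of these, rat 304 at 9.61, stood apart from all others, and over all rats left out in turn the difference was 0.41 to 0.61 with the call kept.

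Slc35b2, which carries the sulfate donor PAPS into the Golgi, rose by 0.26 (SE 0.10, adjusted p = 0.0344) in 11 of 14 late rats, and lost the call when any 1 of 11 rats was left out and in the blocked fit (0.15, adjusted p = 0.386). Slc35e4, a member with no assigned substrate, fell by 0.32 (SE 0.11, adjusted p = 0.0257), and Slc35a4 fell by 0.14 (SE 0.05, adjusted p = 0.0357). Neither was called in the blocked fit (-0.20, adjusted p = 0.219, and -0.16, adjusted p = 0.0704). The other 5, among them the CMP-sialic acid carrier Slc35a1 at 0.04 (SE 0.09), were not called.

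Carriers of monocarboxylates and organic ions had 14 of 15 probes tested, with 1 higher and 3 lower. Slc22a17, the cell surface receptor of the siderophore-binding protein lipocalin-2, rose by 0.42 (SE 0.07, 1.34-fold, adjusted p = 4.42e-05). It lay at 7.19 to 7.86 (median 7.51) in the 12 h rats and at 7.55 to 8.23 (median 7.94) in the late rats, all 14 of them above the 12 h mean. The block left it at 0.41 (adjusted p = 0.000507). Slc13a2, the sodium-coupled carrier of citrate and succinate, fell on both its probes. The dimmer probe stood at 11.58, 11.75, 11.33, 11.46 and 11.26 in the corn oil rats at 12 h and at 10.93, 11.10, 11.10, 10.47 and 11.38 at 10 wk. On fish oil it went from 10.98, 11.40, 11.04, 11.08 and 11.23 to 11.14, 10.96, 10.86 and 10.96. On olive oil it went from 11.43, 11.41, 11.39, 11.37 and 11.41 to a range of 10.84 to 11.29 (median 11.05), with no overlap there. The fish oil rats were the lowest at 12 h and overlapped most between the times. Over the oils its difference was -0.32 (SE 0.07, 1.25-fold lower, adjusted p = 0.00129), and -0.39 in the blocked fit (adjusted p = 0.00355).

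The brighter Slc13a2 probe, which stands for the gene, gave -0.15 (SE 0.06, adjusted p = 0.0478). That call was lost when any 1 of 19 rats was left out and in the blocked fit (-0.10, adjusted p = 0.313). Slc16a3, the lactate exporter of glycolytic cells, fell by 0.24 (SE 0.09, adjusted p = 0.0353), a call lost when any 1 of 10 rats was left out and in the blocked fit (-0.22, adjusted p = 0.128). Slc16a1, the carrier by which colonocytes take up butyrate, was bright and not called on either probe, at 0.07 (SE 0.08, adjusted p = 0.563) and -0.13 (SE 0.07, adjusted p = 0.113). The carnitine carrier Slc22a5 gave -0.13 (SE 0.13, adjusted p = 0.48).

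Among the carriers of metals, 17 of 19 probes were tested, and 3 rose and 3 fell. Slc40a1, the iron exporter ferroportin, fell on both probes. On the first it ranged from 10.60 to 11.43 (median 11.07) at 12 h and from 10.13 to 11.15 (median 10.82) at 10 wk, with 13 of 14 late rats below the 12 h mean and ranges that overlapped. The difference was -0.37 (SE 0.10, 1.29-fold lower, adjusted p = 0.00413), and -0.26 in the blocked fit (adjusted p = 0.0688). On the brighter probe it was -0.20 (SE 0.07, adjusted p = 0.0314), lost when any 1 of 6 rats was left out and in the blocked fit (-0.23, adjusted p = 0.0688). Slc39a4, the zinc importer of the luminal membrane, fell by 0.31 (SE 0.10, adjusted p = 0.0225) and stood at -0.32 in the blocked fit (adjusted p = 0.0629). Within the 3 scan classes it gave -0.38, -0.38 and -0.29.

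Slc39a14, which imports zinc and iron not bound to transferrin, rose by 0.26 (SE 0.09, adjusted p = 0.0214), and Slc39a7, the zinc carrier of the endoplasmic reticulum, by 0.26 (SE 0.10, adjusted p = 0.045). Both were higher in 12 of 14 late rats, and neither was called in the blocked fit (adjusted p = 0.0908 and 0.133). Slc39a7 also lost the call when any 1 of 18 rats was left out. Slc39a13, named here although it fell outside the naming rule, rose by 0.35 (SE 0.14, adjusted p = 0.0466). It lost the call when any 1 of 16 rats was left out and in the blocked fit (0.26, adjusted p = 0.224). Rat 304 at 12 h was its lowest, at 6.54, against 7.52 to 8.68 in all other rats. The tested probe of Slc11a2, the luminal importer of ferrous iron, gave -0.20 (SE 0.12, adjusted p = 0.212).

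Of the carriers of amino acids and peptides, 19 of 25 probes were tested, and 1 rose and 3 fell. Slc1a1, a glutamate and aspartate carrier, ranged from 8.17 to 9.03 (median 8.65) at 12 h and from 8.69 to 9.20 (median 8.88) at 10 wk. It rose by 0.28 (SE 0.08, 1.21-fold, adjusted p = 0.00569), and by 0.48 in the blocked fit (adjusted p = 0.00123). All 14 late rats lay above its 12 h mean. Of the proton-coupled peptide carriers, Slc15a1 and Slc15a2 fell, while Slc15a4 was not called (-0.01, SE 0.10, adjusted p = 0.96). Slc15a1 ranged from 7.51 to 9.73 (median 8.53) at 12 h and from 6.72 to 8.83 (median 7.97) at 10 wk, a difference of -0.60 (SE 0.23, 1.52-fold lower, adjusted p = 0.0441). Its SD between rats, with the oils pooled, was 0.76 at 12 h and 0.63 at 10 wk. Within single groups of oil and time it was 0.30 to 0.91, against a median within-group SD of 0.24 over the tested Slc probes. The Slc15a1 call was lost when any 1 of 16 rats was left out and in the blocked fit (-0.60, adjusted p = 0.0825). Slc15a2 fell by 0.30 (SE 0.09, adjusted p = 0.00846) but stood at -0.09 in the blocked fit (adjusted p = 0.518).

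Slc38a1, a glutamine carrier, has probes that disagree. The called probe fell by 0.33 (SE 0.11, adjusted p = 0.0209), yet in the blocked fit it stood at 0.01 (adjusted p = 0.946), and within the large-ring arrays at 0.27. Its other probes gave -0.16 (SE 0.08, adjusted p = 0.114) and 0.25 (SE 0.12, adjusted p = 0.123). The heavy chain Slc3a2, which partners several amino acid carriers, gave 0.08 (SE 0.06) and -0.01 (SE 0.08), and the glutamine carrier Slc1a5 gave 0.19 (SE 0.10, adjusted p = 0.129). None of these results was called.

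Sugar carriers had 9 of 13 probes tested, with 2 higher and none lower. Slc50a1, a sugar carrier of the SWEET family, rose by 0.33 (SE 0.10, adjusted p = 0.0135), and by 0.41 in the blocked fit (adjusted p = 0.0152). Slc2a13, which carries myo-inositol with protons, rose by 0.32 on its brighter probe (SE 0.09, adjusted p = 0.00893), and by 0.43 in the blocked fit (adjusted p = 0.00988), while its further probe gave -0.21 (SE 0.10, adjusted p = 0.102). The glucose carriers Slc2a1 and Slc5a1 were not called, at -0.04 (SE 0.08, adjusted p = 0.707) and -0.05 (SE 0.06, adjusted p = 0.548). Their 12 h and late means were 12.45 and 12.40 for Slc2a1, and 7.89 and 7.85 for Slc5a1.

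In the class of anions, bicarbonate and phosphate, 7 of 13 probes were tested, with 1 higher and 1 lower. Slc26a8, known as an anion transporter of the testis, rose by 0.32 (SE 0.08, adjusted p = 0.00208), in 13 of 14 late rats, and by 0.38 in the blocked fit (adjusted p = 0.00434). Slc4a7, a sodium and bicarbonate cotransporter, fell by 0.26 (SE 0.10, adjusted p = 0.0327), a call lost when any 1 of 6 rats was left out but kept in the blocked fit (-0.42, adjusted p = 0.0315). The basolateral chloride and bicarbonate exchanger Slc4a2 gave -0.14 (SE 0.08, adjusted p = 0.162) and the cotransporter Slc4a4 -0.23 (SE 0.13, adjusted p = 0.169). The phosphate carriers Slc20a1 and Slc34a2 gave -0.12 (SE 0.12, adjusted p = 0.428) and -0.17 (SE 0.17, adjusted p = 0.457).

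Of the mitochondrial carriers 11 of 16 probes were tested, with 2 higher and 2 lower. Slc25a33, a pyrimidine nucleotide carrier, stood at 9.36 ± 0.21 (SD, n = 15) at 12 h and at 9.61 ± 0.08 (SD, n = 14) at 10 wk, a rise of 0.25 (SE 0.06, 1.19-fold, adjusted p = 0.00095). Every late rat lay above its 12 h mean, and the block left 0.21 (adjusted p = 0.0174). Slc25a51, the NAD carrier, fell by 0.33 (SE 0.08, adjusted p = 0.00295), in 13 of 14 late rats, and by 0.34 in the blocked fit (adjusted p = 0.0354). Slc25a30 rose by 0.28 (SE 0.10, adjusted p = 0.0361), a call lost when any 1 of 9 rats was left out and in the blocked fit (0.06, adjusted p = 0.867). Slc25a34, a carrier with no assigned substrate, fell by 0.21 (SE 0.07, adjusted p = 0.0221), a call lost in the blocked fit (-0.22, adjusted p = 0.0769). The bright phosphate carrier Slc25a3 gave -0.06 (SE 0.05, adjusted p = 0.365).

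Vitamin and nucleoside carriers had 8 of 12 probes tested, with 2 lower and none higher. The riboflavin carrier Slc52a2 fell by 0.30 (SE 0.08, adjusted p = 0.00352), measured in 13 late rats, of which 11 lay below the 12 h mean, and by 0.32 in the blocked fit (adjusted p = 0.0112). Slc29a3, the nucleoside carrier of lysosomes, fell by 0.21 on 1 probe (SE 0.07, adjusted p = 0.0194, and -0.23 with adjusted p = 0.0462 in the blocked fit) and gave -0.04 (SE 0.05) on the other. The folate carrier Slc19a1 and the purine nucleoside carrier Slc28a2 were not called, at 0.09 (SE 0.06, adjusted p = 0.262) and 0.17 (SE 0.12, adjusted p = 0.28).

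The class of lipids, urea, choline and other substrates had 10 of 13 probes tested, with 3 lower and none higher. Slc44a1, a choline carrier, fell on 2 of its 3 probes. One dropped by 0.44 (SE 0.12, adjusted p = 0.00579), another dropped by 0.36 (SE 0.11, adjusted p = 0.0085), and the brightest gave -0.14 (SE 0.06, adjusted p = 0.0644). With the block the first stayed called (-0.63, adjusted p = 0.00909) and the next did not (-0.30, adjusted p = 0.11). Slc49a4 fell by 0.19 (SE 0.07, adjusted p = 0.0331), a call lost when any 1 of 6 rats was left out and in the blocked fit (-0.20, adjusted p = 0.0742). In the class of neurotransmitters and vesicles 6 of 10 probes were tested, and Slc6a7, known as the proline carrier of brain, fell by 0.39 (SE 0.12, adjusted p = 0.0147), with -0.16 in the blocked fit (adjusted p = 0.203). Of the genes named after a transporter, Slc4a1ap rose by 0.16 (SE 0.06, adjusted p = 0.0278), a call lost when any 1 of 3 rats was left out and in the blocked fit (0.03, adjusted p = 0.789), and Slc7a6os gave -0.02 (SE 0.06).

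**Figure D2:**
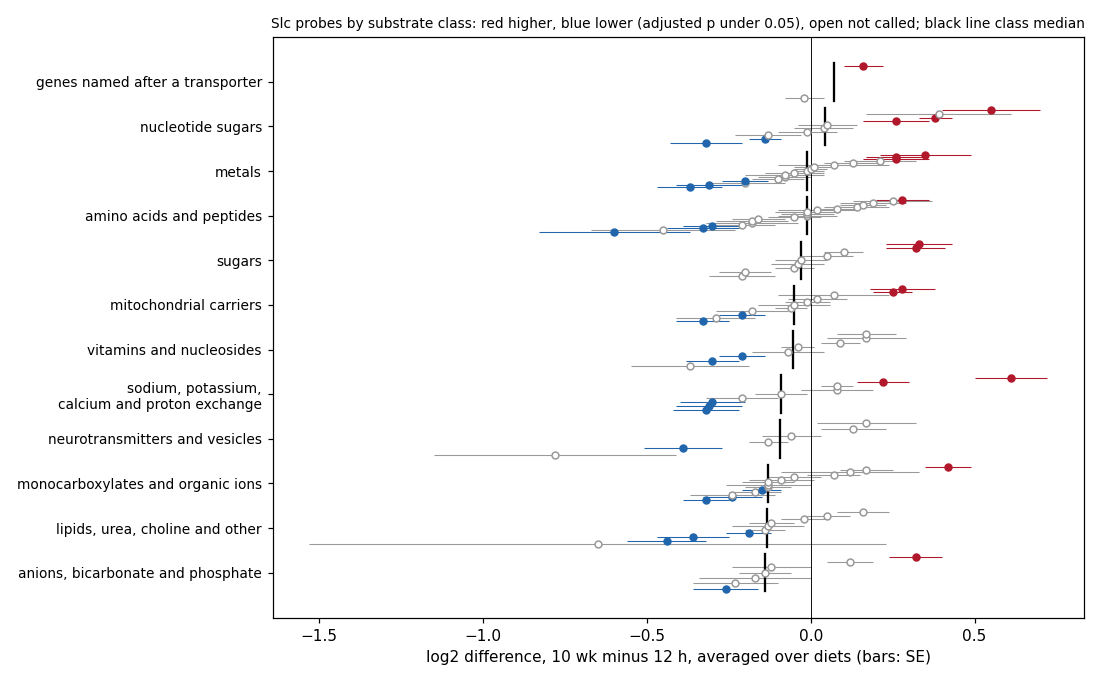
Difference of each tested Slc probe between 10 wk and 12 h (x axis, log2, bars ± SE) by substrate class (y axis), with called rises in red, called falls in blue, uncalled probes open and the class median as a black line. Called rises and falls stand in the same class in 7 of the 12 classes, and the widest bar is that of Slc44a4.

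Scan class moved with time, and the block changed the calls. With it 21 Slc probes were called, 14 higher and 7 lower, and 16 of these were among the 39. The 14 include Slc44a4, whose arrays split as described below. Of all tested probes 29.4% were called in that fit. The sign was kept by 38 of the 39, Slc38a1 being the exception. Within the large-spot, small-ring and large-ring arrays 36, 31 and 36 of the 39 kept their sign. Because the 39 were called on these same arrays, such counts of kept signs are no separate support. They were not counted over all tested probes. Called in every alternative setting and with every rat left out in turn were 10 probes. They were the rises of Slc12a2, Slc35c1, Slc35d1, Slc22a17, Slc1a1, Slc25a33, Slc26a8, Slc50a1 and the brighter Slc2a13 probe, and the fall of Slc52a2. Slc35c1 and Slc52a2 could not be fitted on the deposited values and were compared in the other settings alone.

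**Figure D3:**
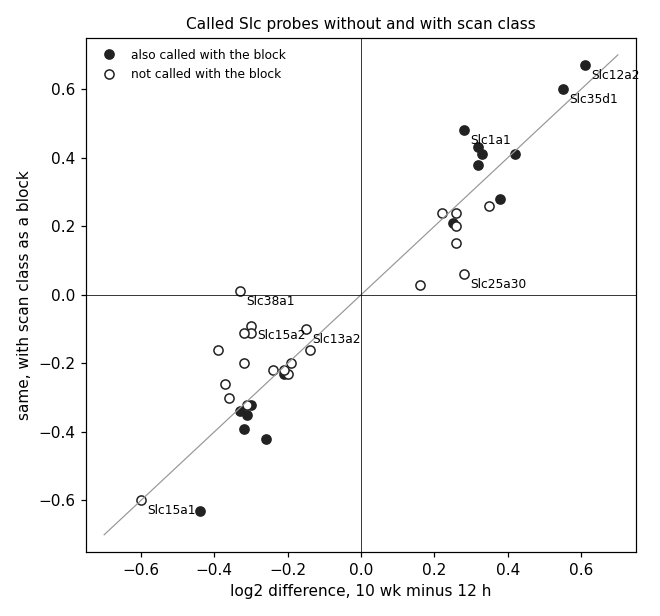
Difference of the 39 called Slc probes between 10 wk and 12 h without scan class (x axis, log2) and with it as a block (y axis, log2), on a line of equality. Filled points are the 16 also called in the blocked fit; Slc38a1 lies at 0.01 on the y axis.

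By signal, 64 tested Slc probes lay under the median level of tested probes (9.47), 26 between it and the 75th percentile (10.67), and 32 above. Among the dim probes 5 rose and 13 fell, 28.1% called against 40.2% of all dim probes. In the middle band 7 rose and 3 fell (38.5% against 37.2%), and among the bright probes 4 rose and 7 fell (34.4% against 29.8%). Bright probes came from Slc9a3, Slc39a4, Slc25a3, Slc16a1, Slc2a1, Slc35c1 and Slc44a1, among others. The SD between rats of a group had a median of 0.24 over the tested Slc probes and 0.21 over all tested probes, and between repeat arrays of a rat 0.18 and 0.17. Of 13 genes with several tested probes, 5 had probes on both sides of 0, namely Slc16a1, Slc22a23, Slc2a13, Slc38a1 and Slc3a2.

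**Figure D4:**
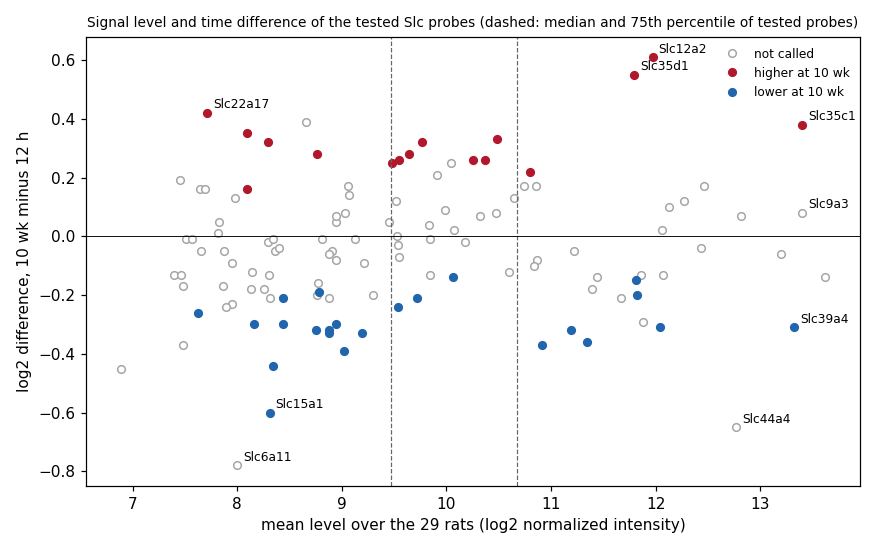
Difference between 10 wk and 12 h (y axis, log2) of the 122 tested Slc probes against their mean level over the 29 rats (x axis, log2 normalized intensity); dashed lines mark the median and 75th percentile of all tested probes. Called probes (filled) occur in all 3 signal bands, and the 3 largest called differences are those of Slc12a2, Slc15a1 and Slc35d1.

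The remaining 40 probes were too dim to test. They include probes for the sulfate carrier Slc26a2 (6.46 to 7.25 over all rats), the erythrocyte anion exchanger Slc4a1 (6.70 to 7.55), the fructose carrier Slc2a5 (6.46 to 6.60), the amino acid carrier Slc7a5 (6.46 to 6.95) and the adenine nucleotide carrier Slc25a4 (7.07 to 7.89). A second Slc11a2 probe lay at 6.72 to 7.55, and a second Slc24a1 probe at 6.46 to 7.91. The floor set on all values was 6.46, and values at it have no order. A dim probe does not show that its transcript was absent.

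Slc44a4, known as a carrier of thiamine pyrophosphate in the colon, was described after its values were seen, since its arrays split. The probe lay at the floor on 10 arrays, 3 from 12 h and 7 from 10 wk, and at 12.73 to 14.54 on the other 33. All arrays of rats 102 and 335 were at the floor, and 4 rats had arrays of both kinds. Among 2458 bright probes of the array, 5 dropped on exactly these arrays, Slc44a4 itself being 1 of the 5. On the other arrays the range was 13.27 to 14.54 at 12 h (14 rats) and 12.73 to 14.12 at 10 wk (13 rats), and the time points overlapped. The fitted time difference, -0.65 (SE 0.88, adjusted p = 0.595), turned to 3.39 in the blocked fit (adjusted p = 0.00306), so the sign differed between the fits. Slc25a17, a peroxisomal carrier, lay at the floor in rat 102 alone and at 8.75 to 9.27 in the others measured. Slc6a11, a GABA carrier, was at 9.68 to 10.01 in rats 105, 106, 301, 302, 305, 134 and 333, of which the last 5 had large spots, and at no more than 8.57 in the rest. Its time difference was not called (-0.78, SE 0.37, adjusted p = 0.096). The split was not particular to Slc6a11. Slc7a12, of the amino acid class, lay at 7.85 to 8.18 in the same rats and at no more than 7.37 in the rest, most of them at the floor.

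**Figure D5:**
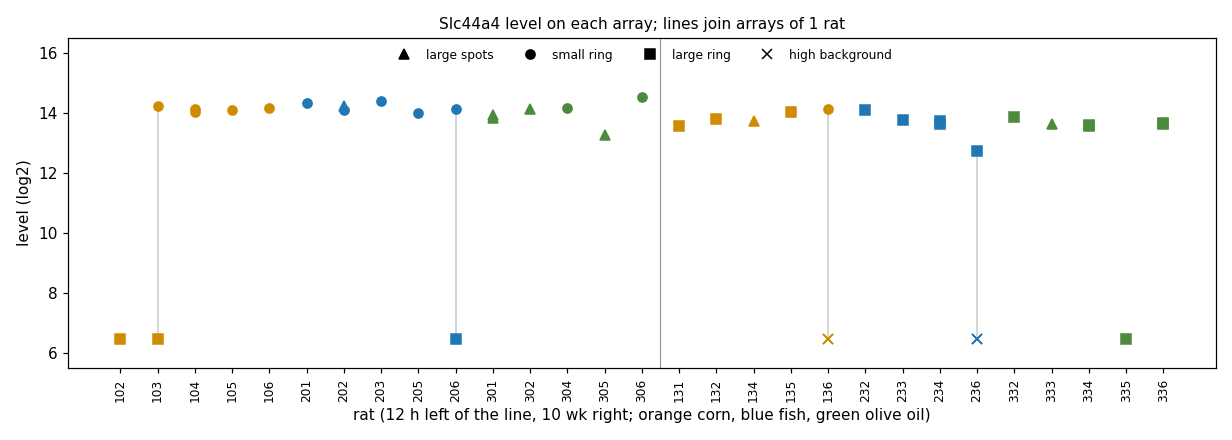
Level of the Slc44a4 probe on each array (y axis, log2 normalized intensity) by rat (x axis), with colours for the oils, marker shapes for the scan classes and lines joining arrays of 1 rat. The probe is at the floor of 6.46 on 10 arrays and above 12 on all others, and 4 rats have both.

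Within single oils fewer rats stood behind each difference. On corn oil 1 Slc probe was called and 0 rose (3.02% of all tested probes, 1.5% higher and 1.52% lower). This was the dimmer Slc13a2 probe, which fell by 0.48 (SE 0.12, adjusted p = 0.0317), while the brighter Slc13a2 probe was not called. The blocked fit kept that fall (-0.55, adjusted p = 0.00891) among 12 calls on corn oil, 9 higher and 3 lower. The share of all tested probes called in the blocked fit within each oil is not given here. Blocked counts within oils are therefore no result about the Slc genes. The 12 on corn oil include Slc44a4 (4.07), Slc25a17 (1.06), Slc6a11 (-1.07) and Slc7a12 (-0.63), whose levels stood apart on some arrays or rats as given above. On fish oil 7 were called (12.1% of all, 6.19% higher and 5.92% lower), the rises of Slc35c1, Slc25a33, Slc26a8 and Slc22a17 (0.38 to 0.46) and the falls of Slc15a2, Slc25a51 and Slc44a1 (-0.67 to -0.46). Of these the blocked fit kept Slc25a33, Slc26a8 and Slc44a1, and it called 5 in all, among them Slc44a4 (4.41). On olive oil 12 were called (13.4% of all, 7.85% higher and 5.5% lower), but only the rises of Slc12a2 (0.80, adjusted p = 0.0461) and Slc22a17 (0.52, adjusted p = 0.0158) were kept in the blocked fit, and none of the falls. On olive oil 4 of 6 arrays at 12 h had large spots and 6 of 7 at 10 wk a large ring, so scan class and time were nearly inseparable there. The 5 rises were in Slc35d1 (0.88, SE 0.25), Slc12a2 (0.83, SE 0.19), Slc22a17 (0.63, SE 0.12), Slc35c1 (0.44, SE 0.09) and Slc25a33 (0.33, SE 0.09). The 7 falls were led by Slc15a1 (-1.22, SE 0.39, adjusted p = 0.0383), which gave 0.08 (adjusted p = 0.928) on fish oil. The test of whether the time difference depended on the oil called 0 Slc probes and 0% of all tested probes. The smallest adjusted p of the Slc probes was 0.938. In that test 5 Slc probes and 260 of all 6381 had an unadjusted p under 0.05, so no difference between the oils was shown.

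Between the oils at 12 h, limma's F test called 0 Slc probes and 0% of all tested probes. The smallest adjusted p of the Slc probes was 0.321. An unadjusted p under 0.05 was reached by 11 Slc probes and by 599 of all 6381. At 10 wk the F test again called 0 of both (0%), with a smallest adjusted p of the Slc probes of 0.357, for Slc4a7. There 10 Slc probes and 412 of all 6381 had an unadjusted p under 0.05. No pair of oils gave a called Slc probe at either time, and fish oil against corn oil at 10 wk called 0.0627% of all tested probes. With the times averaged, fish oil differed from the mean of corn and olive oil in 1 Slc probe, higher, against 0.611% of all tested probes (0.11% higher, 0.501% lower). This was the mitochondrial Slc25a34, by 0.38 (SE 0.08, adjusted p = 0.0197). At 12 h it lay at 8.76, 8.84, 8.66, 8.73 and 9.12 on fish oil, at 8.29, 8.63, 8.22, 8.47 and 8.69 on corn oil, and at 8.13, 8.20, 8.54, 8.29 and 8.67 on olive oil. At 10 wk it lay at 8.80, 8.61, 8.44 and 8.44 on fish oil, at 8.51, 8.30, 8.44, 8.06 and 8.12 on corn oil, and at 8.31, 8.18, 8.12, 8.20 and 8.04 on olive oil. The fish oil rats were the highest group at both times, with small overlaps with corn oil at both and with olive oil at 12 h. On the deposited values no Slc probe was called in this comparison.

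Beside the Slc genes, 22 of a list of 57 colonic transport genes were tested, and 5 rose and 5 fell (45.5%, against 36.9% of all). The blocked fit called 6 higher and 5 lower. The 4 genes named next were called in both fits. Kcnn4, the basolateral potassium channel of chloride secretion, rose by 0.62 (SE 0.13, adjusted p = 0.000875). Slco2b1, an organic anion carrier, rose by 0.65 (SE 0.10, adjusted p = 1.46e-05). The calcium pump Atp2b1 and the water channel Aqp3 both fell, the former by 0.75 (SE 0.15, adjusted p = 0.000299), the latter by 0.59 (SE 0.11, adjusted p = 0.000175). Of 30 partners and regulators of Slc carriers 19 were tested, and 4 rose and 3 fell (36.8%, the background share, so no result about the list). Those that rose include Wnk4 (0.44, SE 0.11) and Stk39 (0.31, SE 0.10), kinases that act on Slc12 cotransporters, and Tfrc, the transferrin receptor (0.46, SE 0.09), and those that fell include the metal-responsive factor Mtf1 (-0.43, SE 0.09). The blocked fit also called these 4.

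Cell type markers were compared in the same way, against 36.9% of all tested probes called. Of 15 colonocyte markers 4 were tested and 3 fell, Klf4 by 0.46 (SE 0.08), Ceacam1 by 0.33 (SE 0.10) and Cdhr5 by 0.29 (SE 0.08). Cdhr5 was not called in the blocked fit (-0.09, adjusted p = 0.488). The summed intensity of the list was 38493 to 48420 at 12 h and 28900 to 45469 at 10 wk. Of 7 smooth muscle markers 4 were tested and 3 rose, Myh11 by 0.59 (SE 0.16), Tagln by 0.48 (SE 0.16) and Smtn by 0.30 (SE 0.09), and Tagln was not called in the blocked fit (0.36, adjusted p = 0.15). Their summed intensity was 663 to 1555 at 12 h and 882 to 2116 at 10 wk, and Cnn1 touched the floor in 8 rats. The single tested marker of red blood cells, Alas2, fell by 0.62 (SE 0.19) and was not called in the blocked fit (-0.55, adjusted p = 0.0818). Of 2 tested markers of small intestinal enterocytes Sult1c2 rose by 0.65 (SE 0.12) and Fabp2 gave -0.18 (SE 0.54, not called). Of 2 of fibroblasts Col1a1 fell by 0.23 (SE 0.09) and Vim gave -0.09 (SE 0.13, not called). Among 5 of immune cells Itgam fell by 0.28 (SE 0.10). The others were not called, with Cd74 at 0.28, Ptprc at -0.08, Cd14 at -0.04 and Lyz2 at -0.36. In the blocked fit Itgam was not called (-0.11, adjusted p = 0.263) and Lyz2 was (-0.97, adjusted p = 0.00386). The tested markers of goblet cells (1), enteric neurons and glia (1), adipocytes (2) and endothelium (2) were not called, while the blocked fit called Tff3 (-0.29, adjusted p = 0.0243) and Vwf (-1.55, adjusted p = 0.00302), which touched the floor in 26 rats. In such bulk tissue fewer cells of a type and less RNA per cell cannot be told apart, and the part of these markers in the Slc differences was not tested.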

How the data were processed

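Per the file headers, the deposited array files hold spot intensity and local background on a linear scale for 1-colour CodeLink arrays, and the authors' normalized intensity. In the deposited background-subtracted intensities some probes have the same value on all arrays of an oil (1966 probes for corn oil, 1559 for fish oil, 1227 for olive oil). The authors' normalized intensity therefore served as an alternative only, without these probes. No source used here names the scanner software. From spot mean and background median, normexp correction (offset 50) and quantile normalization were applied in limma 3.58.1 under R 4.3.3. Values under the 10th percentile (log2 6.46) were raised to it, log2 was taken, and repeat arrays were averaged per rat, so the log2 levels are computed from the deposited intensities. A probe was tested if above the 30th percentile (log2 7.66) in at least 4 rats. One fit over the 6 groups (lmFit, eBayes, 23 residual degrees of freedom) gave all contrasts, with Benjamini-Hochberg adjustment over 6381 probes. The procedure was checked on simulated data. With 4 or 5 rats per group, their number limits the precision. Spots with the missing code were left out, so 8 tested Slc probes lack at least 1 rat.

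Scan classes were set from median spot diameter (over 18 pixels), ring area (under 450 pixels) and median background (over 75). For the block, rat was a random effect across classes. The platform annotation named 6252 probes with 1 symbol, 75 with several and 2125 with none. The members and lists were chosen with earlier results of these data known. Slc4a1ap and Slc7a6os were moved to a class of their own once the symbols were read. Named with values are, per substrate class, up to 5 called members with the smallest adjusted p, members called between oils, and well-known colonic carriers whatever their values.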

Additional observations from a re-analysis of the deposited data

Results flagged for a closer look

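In 227 groups of 4 or 5 rats, over 38 named Slc probes, 5 single rats lay apart from the rest of their group by Dixon's criterion, where chance alone flags about 1 group in 20. Slc1a1 in rat 201 (fish oil, 12 h) was at 8.17, against 8.71 to 8.84 in the others. Slc35d1 in rat 304 (olive oil, 12 h) was at 9.61, against 11.40 to 12.00. The drop in rat 304 was not particular to Slc35d1. Slc22a18 was at 9.26 in that rat, against 12.10 to 12.66 in all other rats, and 6 bright probes dropped on its array. Slc35e4 in rat 136 (corn oil, 10 wk) was at 8.28, against 8.76 to 8.91. Slc4a1ap was at 7.83 in rat 105 (corn oil, 12 h), against 8.02 to 8.09, and at 7.67 in rat 202 (fish oil, 12 h), against 8.01 to 8.13.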

How the results depend on the processing

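The 39 Slc probes called between the time points became 13 on the deposited normalized values and 21 with scan class as a block, and 34 to 44 in the other planned settings that kept all rats. With each rat left out they numbered 27 to 41, and the lowest count came without rat 236. On the deposited values the median difference of all probes moved to 0.08, and to 0.20 on corn oil. The late corn oil rat 131 had a deposited array median of 2.02, against 1.04 to 1.06 on all other arrays. Leaving out the high-background arrays gave 36 and leaving out the arrays with Slc44a4 at the floor 35, both chosen after seeing the data. The block turned the called Slc38a1 probe from -0.33 to 0.01. On corn oil the count of 1 became 3 on the deposited values, 5 without the filter on dim probes, 2 with the first array of each rat, 4 with rat as a random block, 12 with scan class as a block, 2 without the high-background arrays, 0 without the arrays with Slc44a4 at the floor, and 0 to 3 with a rat left out (0 without rat 102, 103, 105, 131 or 135). On fish oil 7 became 0, 14 and 12 on the deposited values, with rat as a random block and without the arrays with Slc44a4 at the floor, and 2 to 10 with a rat left out (2 without rat 236). On olive oil 12 became 3 on the deposited values, 2 with scan class as a block and 5 to 16 with a rat left out (5 without rat 305 or 334). Between the oils at 12 h, 1 Slc probe was called without the filter, and for fish oil against the others 0 on the deposited values, 3 with the first array and 1 to 2 with a rat left out. The cause of these changes was not tested. The counts in this section stand without the shares of all tested probes, so they are no result about the Slc genes as a set. No paired analysis was possible because the rat numbers differ between all groups. Signal over background limits the dim probes, and a difference can be understated where values were raised to the floor.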
